A study of Mus musculus with 24 samples.

Results

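The clustered protocadherins are adhesion proteins encoded by neighbouring genes on chromosome 18 of the mouse. They were taken here as every gene in the count files whose symbol begins with Pcdha, Pcdhb or Pcdhg and carries the number or letter of a cluster member. This gave 57 genes of 49568 listed: 13 in the alpha cluster, 22 in the beta cluster and 22 in the gamma cluster. On GRCm38, with positions from GENCODE M21, the alpha genes lay between 36930184 and 37187661, the beta genes between 37264938 and 37524479, and the gamma genes between 37661793 and 37841873, all on the plus strand. The RNA was poly(A) RNA from the hippocampus of male mice on a C57-Bl/6J background, aged 21 to 23 months. Wild-type (WT) mice and MSK1 kinase-dead (MSK1 KD) mice, which carry the D194A point mutation in both copies of Rps6ka5, were compared after standard housing (WTSH, KDSH) or after enrichment from 18 months of age (WTEE, KDEE). Enriched mice lived in large cages with running wheels, toys and other objects. WT and MSK1 KD mice were bred as separate homozygous lines, so that genotype and line cannot be told apart, and the mutation was present in every cell. Each of the 24 libraries came from 1 mouse, with 6 in each group. Libraries WTSH 4, WTSH 7 and KDSH 6, which the published work also leaves out for ribosomal RNA or low correlation with the others, were set aside. The remaining 21 mice were 4 WTSH, 5 KDSH, 6 WTEE and 6 KDEE.

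Each clustered protocadherin is a single-pass membrane protein with cadherin repeats outside the cell that bind the same protein on a facing membrane. A neuron switches on only some of the genes, largely at random, when the insulator protein CTCF and the cohesin ring bring a promoter to a distant enhancer, and the resulting combination acts as a label by which a dendrite or axon tells its own branches from those of other cells. The C-type genes, Pcdhac1 and Pcdhac2 at the end of the alpha cluster and Pcdhgc3, Pcdhgc4 and Pcdhgc5 at the end of the gamma cluster, are expressed in a less random way. Pcdhac2 is best known from serotonergic axons, Pcdhgc4 from the survival of interneurons and Pcdhgc3 from dendrite branching.

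The structure of the genes decided which part of each transcript was counted. Every alpha transcript joins its own first exon to the same constant exons, and every gamma transcript does so with another set, while each beta gene is essentially 1 exon of its own. HTSeq leaves out a read that falls on exons of more than 1 gene, so that alpha and gamma genes were counted almost only on their own exons. The unshared exon bases numbered 1886 to 3767 for the tested alpha genes, 1107 to 8695 for the beta genes and 1256 to 4614 for the gamma genes. The nearest counted base lay 2860 to 3198 transcript bases from the 3′ end in alpha genes and 0 to 455 in beta genes. In the tested gamma genes it lay at 2116 to 2227, except in Pcdhgc5, where it lay at 410. Counts therefore came from the 5′ part of alpha and gamma transcripts and from the whole of most beta transcripts. Those of Pcdhgc5 came in part from nearer its 3′ end, though its counted bases lay 3497 bases from it on average. Of the 57 genes, 55 passed the filter on low counts. Pcdhga10 was at 0 in every library and has no unshared exon base in GENCODE M21, and Pcdha4 has 404 unshared bases and had a median of 4.01 normalized counts. Nothing can be said of the expression of these genes from such counts. The symbol Pcdha11 stands for 2 Ensembl genes, so its level is uncertain, and reads of paralogs that align equally well at several places were not counted.

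The 21 libraries held 27410239 to 71907130 counts in genes, of which 14174 to 38865 were in the clustered protocadherins. Ambiguous read pairs made up 4.14% to 6.57% of those that were assigned, ambiguous or outside genes. Levels are given as normalized counts, that is, counts scaled by the trimmed mean of M-values (TMM) to the mean library size of the 21 mice. Rps6ka5, whose mutation is a change of 1 amino acid and need not alter its RNA, averaged 1119 ± 101 normalized counts (SD) over the 4 WTSH mice, 1158 ± 21.9 over the 5 KDSH mice, 1043 ± 190.0 over the 6 WTEE mice and 1140.2 ± 27.5 over the 6 KDEE mice. The difference of KDSH from WTSH was 0.05 on the log2 scale (edgeR, adjusted p = 1.0), so that its level does not check the genotype labels. Markers of excitatory neurons (Slc17a7, Camk2a, Neurod6, Rbfox3, Snap25) summed to 274367 to 421773 normalized counts and those of dentate granule neurons (Prox1, C1ql2, Dsp) to 8108 to 13391, as the hippocampal label implies. None of the markers found in the files, over 15 lists of cell types and RNA classes, was at 0 in all 21 mice. The serotonergic list (Tph2, Slc6a4, Fev) summed to only 38.7 to 88.7, and choroid plexus markers ranged from 1247 to 469563. In whole tissue, fewer cells of a type and less RNA per cell cannot be told apart.

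Levels of different genes were compared per kb of unshared exon, as the median normalized count per kb over the 21 mice. Pcdhgc5 had the highest level, 901 per kb (range 210.3 to 1108), followed by the other C-type genes Pcdhgc3 with 678 (261 to 869) and Pcdhac2 with 478 (88.8 to 602). The next was a beta gene, Pcdhb9, with 450.2 and a far narrower range, 406 to 493.4. The remaining C-type genes were lower, with 166 per kb for Pcdhgc4 (rank 17 of 55) and 56.9 for Pcdhac1 (rank 47). Pcdhgc5 was above Pcdhgc3 in 20 of 21 mice and Pcdhgc3 above Pcdhac2 in 18. Pcdhac2 was above Pcdhb9 in 16 mice and Pcdhb9 above Pcdhga11 in 17, while Pcdhga11 was above Pcdhga2 in all 21. From Pcdhgb6 downwards neighbours in the order exchanged places often, for example Pcdhgb6 and Pcdhga3, whose order held in 14 of 21 mice.

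**Figure D1:**
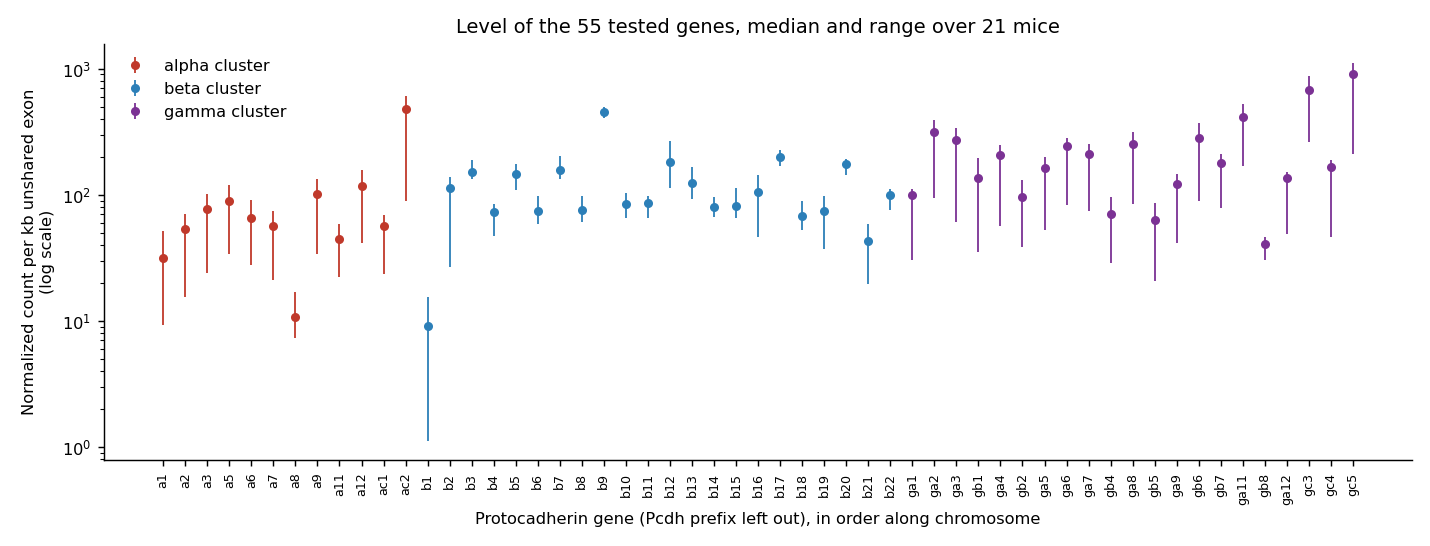
Median level of the 55 tested genes (points) with the lowest and highest of 21 mice (lines), in normalized counts per kb of unshared exon on a log axis, in order along chromosome 18. Pcdhgc5, Pcdhgc3, Pcdhac2 and Pcdhb9 stand above the rest, and the lower ends of most alpha and gamma lines are 1 mouse, WTEE sample 10.

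The alpha cluster held the lower counts per kb. Its 12 tested genes had a median of 61.2 per kb, against 93.0 for the 22 beta genes and 178 for the 21 gamma genes. The clusters were not counted at like places. The median distance of counted bases from the 3′ end was 4097 in alpha, 3391 in gamma and 1856.5 in beta genes. Levels per kb are therefore not strictly comparable between clusters, and the part of distance in these differences was not tested. Among alpha genes other than the C-types the highest were Pcdha12 with 118 and Pcdha9 with 101, and the lowest were Pcdha1 with 31.7 and Pcdha8 with 10.7. Among beta genes Pcdhb17 (200.1) and Pcdhb12 (183) followed Pcdhb9, and Pcdhb21 (43.3) and Pcdhb1 (9.10) were lowest. Among gamma genes Pcdhga11 (415) followed Pcdhgc5 and Pcdhgc3, and Pcdhgb5 (63.4) and Pcdhgb8 (40.8) were lowest. Unshared bases were taken over all annotated transcripts of a gene. For Pcdhgb5 they numbered 4614, nearly as many as the 4670 of its longest transcript with shared exons included. Its low level per kb is therefore uncertain. The exons of Pcdhgc5 covered 7627 bases, against 5777 in its longest transcript, so its level per kb is uncertain too. The highest and lowest tested gene differed 44.5-fold within alpha, 49.5-fold within beta and 22.1-fold within gamma. Position along the cluster gave little order to the levels outside the C-types. Spearman's rho between start position and level was 0.50 over 9 alpha genes, -0.02 over 22 beta genes and -0.13 over 18 gamma genes. These genes share the libraries and are not independent, so no test was made.

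Summed over their genes, the clusters differed up to 1.45-fold (alpha), 1.21-fold (beta) and 1.22-fold (gamma) among 20 of the 21 mice. In those 20 the alpha sum ran from 2642 to 3818 normalized counts, the beta sum from 9315 to 11294 and the gamma sum from 12647 to 15466. WTEE sample 10 stood apart. Its alpha sum was 912, against 2787 to 3377 in the other 5 WTEE mice, and its gamma sum was 4306, against 12647 to 14555. Its beta sum of 8440.2 was also the lowest of the 21, but by a much smaller distance. This mouse set most of the spread in WTEE. The WTEE gamma sum was 12170 ± 3916 (SD, n = 6) with it and 13743 ± 784 (SD, n = 5) without it, beside 14315 ± 635 over 4 WTSH mice, 14647 ± 816 over 5 KDSH mice and 13946 ± 1076 over 6 KDEE mice. The alpha sum was 2751 ± 929 in WTEE (SD, n = 6) with it and 3118 ± 256 (SD, n = 5) without it, beside means ± SD of 3241 ± 394 for WTSH, 3458 ± 237 for KDSH and 3046 ± 322 for KDEE. For the beta sum the WTSH mean was 10052 ± 454, the KDSH mean 10518 ± 541, the WTEE mean 9893 ± 915 and the KDEE mean 10209 ± 459.8, with overlapping ranges in all 4 groups.

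**Figure D2:**
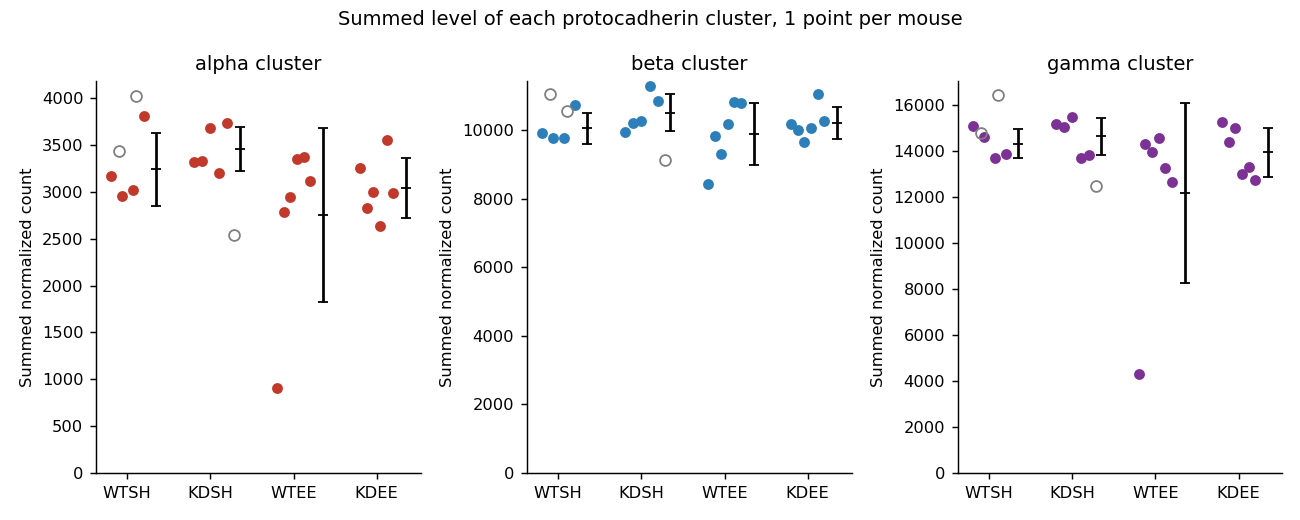
Summed normalized counts of the alpha, beta and gamma genes in each mouse (filled points), with the mean ± SD of each group beside them (black) and the libraries set aside as open circles. WTEE sample 10, with 912 for alpha and 4306 for gamma, lies far below every other mouse in both clusters and only slightly below in beta.

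The shortfall in WTEE sample 10 covered nearly the whole of the alpha and gamma clusters. Relative to the mean of the other 5 WTEE mice, the median log2 ratio was -1.51 over the 12 alpha genes, -1.53 over the 21 gamma genes and -0.36 over the 22 beta genes. The ratio was below -1 for 11 alpha, 20 gamma and 4 beta genes. Pcdhac2 had 269 normalized counts in this mouse and 1217 to 1546 in the other WTEE mice, a log2 ratio of -2.39. Pcdhgc5 had 968 against 3954 to 4283, a log2 ratio of -2.09. The genes outside the pattern were Pcdha8 (0.31) and Pcdhgb8 (-0.31), which had the lowest levels of their clusters. Among the beta genes Pcdhb1 (-2.43, with 3 raw counts), Pcdhb2 (-2.06), Pcdhb16 (-1.16) and Pcdhb21 (-1.05) were low as well, whereas Pcdhb9 (-0.02) was level and Pcdhb12 (0.56) was high. These beta genes other than Pcdhb1, Pcdhb9, Pcdhb12 and Pcdhb21 were picked out after their values were seen. Pcdhb12 was counted near the 3′ end, 553 bases from it on average. Other genes counted under 1000 bases from the end were as high in this library, with a median of 0.55. In all, 43 of the 55 genes had their lowest value of the 21 mice in this library, which held the lowest value for 29.0% of all 20187 tested genes.

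The same library was low in genes counted far from the 3′ end. For each other protein-coding gene with a mean of at least 50 normalized counts, the mean transcript distance of the counted exon bases from the 3′ end was taken from GENCODE M21. The median log2 ratio of WTEE sample 10 to the other WTEE mice was 0.55 in the 2462 genes under 1000 bases, 0.11 in the 5429 genes from 1000 to 2000, -0.23 in the 3321 genes from 2000 to 3000, -0.51 in the 1582 genes from 3000 to 4500 and -0.72 in the 593 genes beyond. The counted bases of alpha and gamma genes lay on average 2646 to 4374 bases from the end. Most of these genes were below even the lower quartile of other genes at such distances, which was -0.79 from 3000 to 4500 bases. Many beta genes fell short too. The 12 of them from 1000 to 2000 bases with a mean of at least 50 normalized counts had a median of -0.35. The lower quartile of the other genes in that range was -0.12. In the 47 other genes whose nearest counted base lay at least 2000 bases away, as in the alpha genes, the median was -0.65 with a lower quartile of -1.17. Other readouts of this library also stood at the edge of the 21. Excitatory neuron markers summed to 274367, against 361619 to 421773 in the other 20 mice, markers of oligodendrocyte precursors (Pdgfra, Cspg4, Olig2) to 5218, against 5574 to 7853, and dentate granule markers to 8108, against 8139 to 13391. Endothelial markers (Cldn5, Flt1, Pecam1) summed to 6837, above the 4042 to 6285 of the other 20, and the sparse serotonergic markers to 88.7, above 38.7 to 72.4. Choroid plexus markers (256610) and structural RNA genes (390869) were high but within the range of the others, and 6.57% of its reads were ambiguous, the highest share of the 21. The part of these in the low alpha and gamma counts was not tested.

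**Figure D3:**
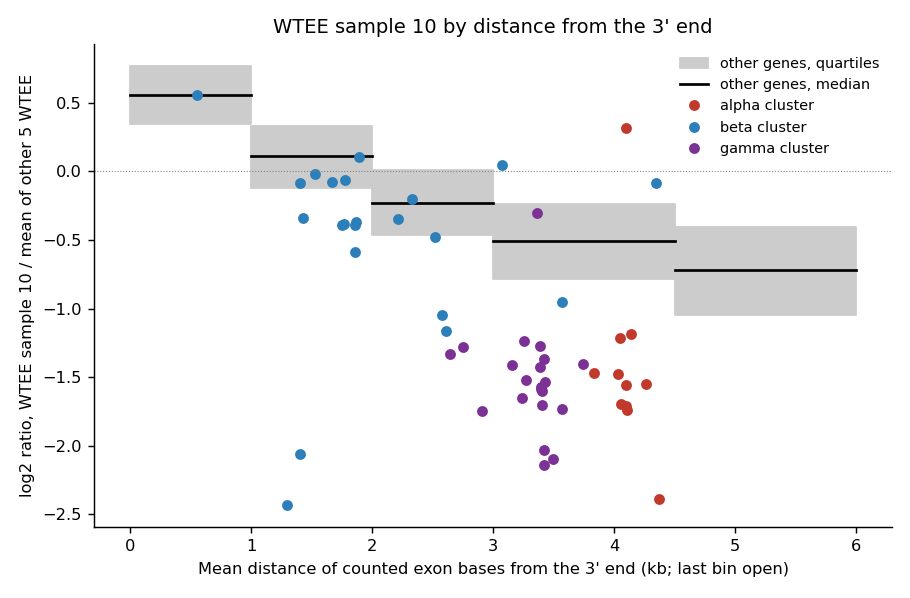
Log2 ratio of WTEE sample 10 to the mean of the other 5 WTEE mice against the mean distance (kb) of the counted exon bases from the 3′ end. Points are alpha, beta and gamma genes, and the black lines and grey boxes are the median and quartiles of all other genes in each range of distance, falling from 0.55 to -0.72. Nearly all alpha and gamma genes lie below the boxes. Beta genes lie in, below and above them, and many lie below.

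To compare libraries on this scale, an end-distance index was formed for each: the median log2 level, relative to the 21 mice, of genes counted over 3000 bases from the 3′ end minus that of genes counted under 1000 bases from it, with the protocadherins left out. The index was -1.14 in WTEE sample 10 and -0.31 to 0.21 in the other 20 mice. At its extremes alpha levels moved with it among those mice too. The mouse with the lowest index, KDEE sample 15 (-0.31), also had the lowest alpha sum of the 20 (2642), and the mice with the highest, KDSH sample 24 (0.21) and WTSH sample 23 (0.15), had the highest alpha sums (3737 and 3818). KDSH sample 18 (0.13), however, had an alpha sum of 3208, near the median of the 20 mice (3188). Gamma sums followed the index less closely. KDSH sample 24 and WTSH sample 23 had 13831 and 13869, below the median of the 20 mice (14131). KDEE sample 14 (-0.13) had 14996, while KDEE sample 15 was low here too (12993). Beta sums went partly with the index as well. KDSH sample 18 had the highest of the 20 mice (11294) and WTEE sample 13 (-0.12) the lowest (9315). On the other side, KDEE sample 15 had a beta sum of 10077, near the median (10172), and WTEE sample 17 (-0.04) had 10824. The mean ± SD of the index was 0.06 ± 0.07 over 4 WTSH mice and 0.10 ± 0.09 over 5 KDSH mice. It was -0.03 ± 0.06 over 5 WTEE mice without sample 10 and -0.07 ± 0.15 over 6 KDEE mice, so the means of the enriched groups were the lower ones. Whether enrichment and the index are linked was not tested. Because the index is computed from the same libraries, no correlation is given.

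**Figure D4:**
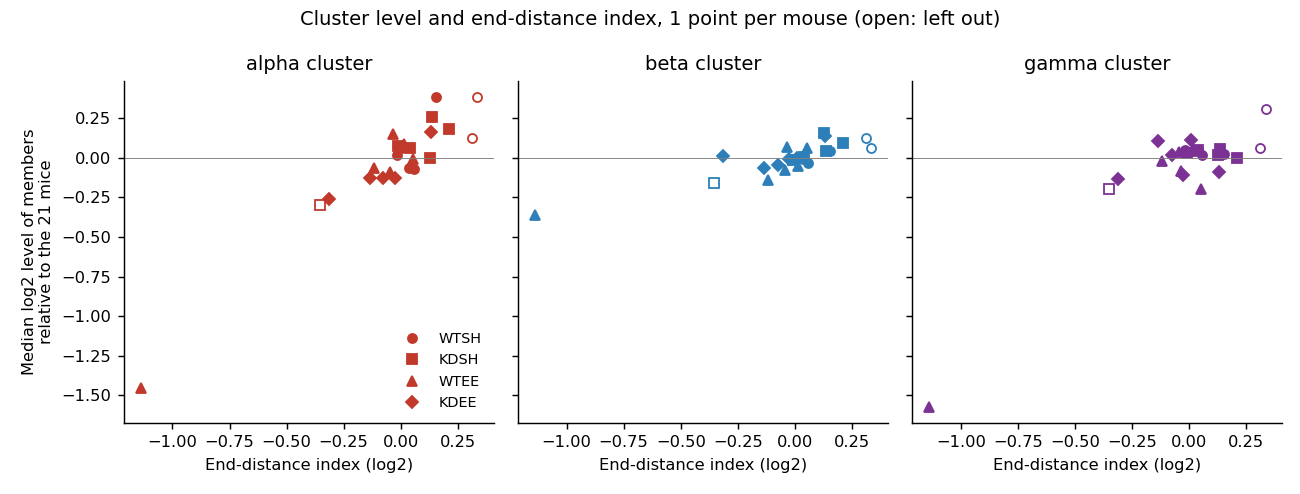
Median log2 level of the alpha, beta and gamma genes in each mouse, relative to the median of the 21 mice, against the end-distance index (log2) of the library. Filled points are the 21 mice, open points the libraries set aside, and shapes the groups. WTEE sample 10 lies at -1.14 on the index, with medians of -1.45, -0.36 and -1.57.

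Enrichment in WT mice was tested by WTEE against WTSH. No clustered protocadherin passed an adjusted p of 0.05 with an absolute log2 fold change over 0.38, and neither did any of the 20187 tested genes in edgeR (0% called), while DESeq2 called 2 genes, none of them among the 55. At an unadjusted p under 0.05 there were 2 of the 55, against 6.55% of all genes, so the share of the protocadherins was below the background. With all 6 WTEE mice, 45 of the 55 genes were lower and 10 higher, with a median log2 fold change of -0.16 beside 0.01 over all genes. All 21 gamma genes were lower (median -0.22). Without WTEE sample 10 the median over the 55 was -0.02, with 37 lower and 18 higher, and with the end-distance index as a covariate it was 0.03. The low medians therefore came mainly with that 1 mouse.

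The genes with the largest differences kept the direction without it. Pcdhga9 had 508, 422, 455 and 491 normalized counts in WTSH. In WTEE it had 144 in sample 10 and 254, 365, 396, 411 and 434 in the others. Of the WTEE mice, 5 were below every WTSH mouse. WTEE was lower by a log2 fold change of -0.49 ± 0.20 (SE), with an adjusted p of 0.651 in edgeR, of -0.33 without sample 10 (adjusted p = 1.0) and of -0.27 with the index as a covariate. The two-sided exact permutation test gave p = 0.0190 with 4 and 6 mice. Pcdha12 had 272, 255, 277 and 299 in WTSH, and in WTEE 80.0 in sample 10 and 192, 205, 217, 227 and 274 in the others. Here too 5 WTEE mice were below every WTSH mouse. The difference was -0.47 ± 0.21 (SE) on the log2 scale, with an adjusted p of 0.651 in edgeR, and it was -0.30 without sample 10 and -0.22 with the index as a covariate. The exact permutation p was 0.0286. Neither gene passed the adjusted test in any fit, and the groups of each overlapped. In 0.986% of all genes the WTEE and WTSH ranges did not overlap, and none of the 55 was among them.

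Enrichment in MSK1 KD mice was tested by KDEE against KDSH, and again no clustered protocadherin and no other gene was called by edgeR (0%), while DESeq2 called 14 genes, none of them among the 55. None of the 55 reached an unadjusted p under 0.05, against 11.6% of all genes. The alpha genes had the lowest values in this comparison. Of the 12, 11 were lower in KDEE, with a median log2 fold change of -0.18, while 16 of 22 beta genes (median -0.05) and 13 of 21 gamma genes (median -0.03) were lower and all genes had a median of 0.00. With the end-distance index as a covariate 8 of the 12 alpha genes were higher instead, and their median was 0.05. The slope on the index rests largely on WTEE sample 10, at -1.14 against -0.31 to 0.21 in the other 20 mice. The index was not fitted without that mouse, so the change of direction does not show what the index does within KDEE and KDSH. In the fit with the index 12 of 22 beta genes (median 0.01) and 19 of 21 gamma genes (median 0.15) were higher as well. In the 4 mice numbered 17 to 24 the log2 ratio of the alpha sums was -0.09, against -0.18 in all 11.

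Pcdha2 and Pcdhgb2 had the largest differences between KDEE and KDSH. Pcdha2 had 140.3, 138, 161, 159 and 150.4 normalized counts in KDSH, and 94.6 to 135 in KDEE with a median of 127. All 6 KDEE mice were below all 5 KDSH mice. It was the only protocadherin whose groups did not overlap, against 1.84% of all genes, which is about the share of 1 in 55. The log2 fold change was -0.30 ± 0.21 (SE; edgeR, adjusted p = 0.535), and the exact permutation p of 0.00433 is the smallest that 5 and 6 mice can give. Without WTEE sample 10, which enters the shared estimate of the spread, the fold change was -0.29 with an adjusted p of 0.117. With the index as a covariate it was -0.06 with an adjusted p of 0.854. Pcdhgb2 had 264, 364, 327, 299 and 281 in KDSH and 229.8 to 295 in KDEE with a median of 246, which is a log2 fold change of -0.27 ± 0.19 (SE; edgeR, adjusted p = 0.548). Its groups overlapped, and the exact permutation p was 0.0260. With the index as a covariate the fold change was -0.11.

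The genotypes under standard housing were compared by KDSH against WTSH. No clustered protocadherin was called by edgeR or DESeq2 (0% of all genes by either), and 1 had an unadjusted p under 0.05, against 1% of all genes. Of the 55, 40 were higher in KDSH than in WTSH, with a median log2 fold change of 0.04 beside 0.00 over all genes, and medians of 0.06 for alpha, 0.08 for beta and 0.01 for gamma. The direction turned with the libraries set aside: over all 24 the median was -0.04. The gene with p under 0.05 was Pcdhb14, which had 608, 726, 601 and 650.3 normalized counts in WTSH and 768, 635, 761, 794 and 769 in KDSH. Of the KDSH mice, 4 were above every WTSH mouse, with a log2 fold change of 0.21 ± 0.09 (SE; adjusted p = 1.0 in edgeR). The WTSH libraries set aside had 878 and 883, above every kept mouse of both groups. Pcdhb14 is named because the count was 1, chosen after its values were seen.

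The largest differences between KDSH and WTSH were those of Pcdhb1 and Pcdha9. Pcdha9 had 252, 173, 229 and 219 in WTSH and 255, 263, 330.2, 253 and 325 in KDSH, so that all 5 KDSH mice were above all 4 WTSH mice by a margin of about 2 normalized counts. It was the only 1 of the 55 whose groups did not overlap, against 0.644% of all genes. In edgeR the log2 fold change was 0.39 ± 0.24 (SE, adjusted p = 1.0), and the exact permutation p of 0.0159 is the smallest that 4 and 5 mice can give. In the WTSH libraries set aside, Pcdha9 stood at 259 in sample 4 and 358 in sample 7, both above every kept WTSH mouse, and with all 24 libraries the log2 fold change was smaller, 0.13. Pcdhb1, the gene with the lowest level, had 16.99, 23.8, 26.2 and 16.03 in WTSH and 29.9, 26.8, 12.5, 40.0 and 30.6 in KDSH. The groups overlapped, and the log2 fold change of 0.42 ± 0.39 (SE; edgeR, adjusted p = 1.0) was close to its error.

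The genotypes under enrichment were compared by WTEE against KDEE. Again 0 of the 55 and 0% of all genes were called by edgeR, DESeq2 called 118 genes but none of the 55, and none of the 55 reached an unadjusted p under 0.05, against 4.99% of all genes. In 0.624% of all genes, and in none of the 55, the groups did not overlap. With sample 10 included, 48 of the 55 were lower in WTEE (median log2 fold change -0.13). Without it 31 were lower and 24 higher (median -0.01). Pcdhb1 had the largest difference, with 2.89 to 30.1 normalized counts in WTEE (median 18.6) and 16.2 to 31.8 in KDEE (median 24.1), which gave a log2 fold change of -0.49 ± 0.34 (SE; edgeR, adjusted p = 0.957), or -0.28 without sample 10. Pcdhgc4 followed, with 161 to 595 in WTEE (median 521) and 514 to 660.5 in KDEE (median 589). For Pcdhgc4 this was -0.32 ± 0.19 (SE; edgeR, adjusted p = 0.957), and -0.15 without sample 10.

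The interaction asks whether enrichment acted differently in the 2 genotypes. None of the 55 and 0% of all genes were called by edgeR, DESeq2 called 20 genes but none of the 55, and none of the 55 had an unadjusted p under 0.05, against 3.26% of all genes. The median over the 55 was -0.06 on the log2 scale, and 0.05 without sample 10. The largest estimates were those of Pcdhga9, -0.44 ± 0.27 (SE), and Pcdhga4, -0.38 ± 0.30 (SE), both with an edgeR adjusted p of 1.0. Without sample 10 they were -0.29 and -0.20. Pcdhga4 had 336 to 341 normalized counts in the 4 WTSH mice and 277 to 366 in KDSH, 88.7 to 359 in WTEE and 298 to 389 in KDEE. The fits of the genotype and housing comparisons share groups and are given side by side for that reason, with no measure of their likeness.

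**Figure D5:**
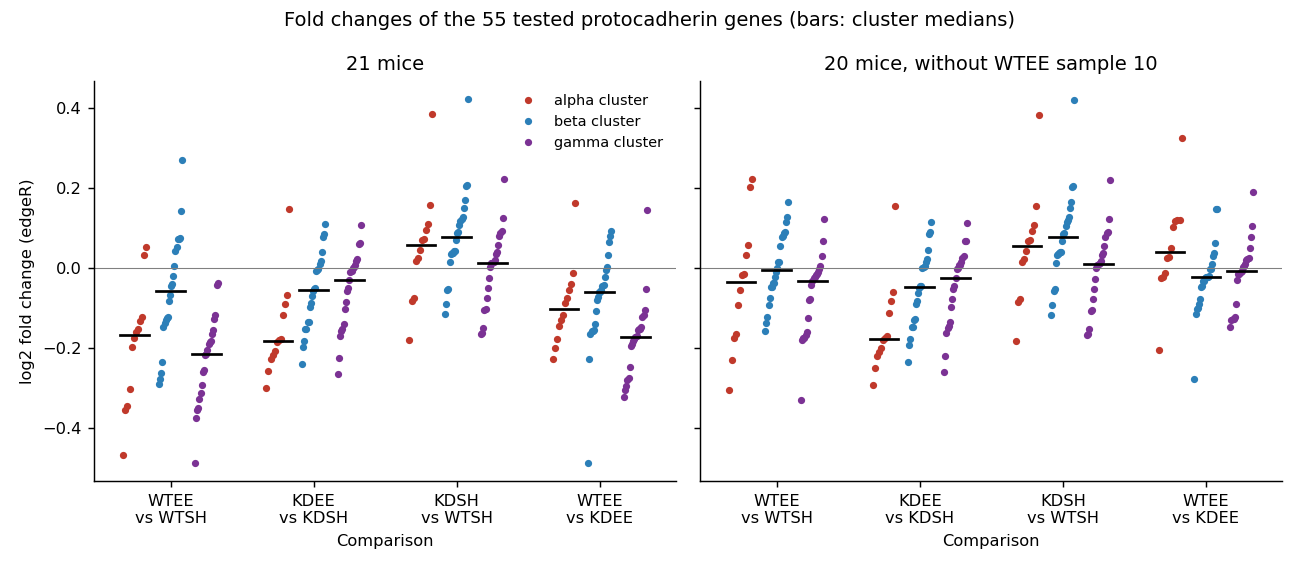
Log2 fold changes of the 55 tested genes from edgeR in the 4 comparisons of groups, with all 21 mice (left) and without WTEE sample 10 (right). Points are genes coloured by cluster and bars are cluster medians. For WTEE against WTSH the gamma median moves from -0.22 to -0.03 when sample 10 is left out, and the KDEE against KDSH alpha median stays at -0.18.

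The C-type genes made up a steady part of their clusters. Pcdhac1 and Pcdhac2 together held 50.9 ± 0.52% (SD) of the alpha sum over 4 WTSH mice, 51.5 ± 0.85% over 5 KDSH mice, 49.7 ± 1.09% over 5 WTEE mice without sample 10 and 51.2 ± 1.28% over 6 KDEE mice, against 36.2% in WTEE sample 10. The gamma C-types held 41.6 ± 1.59%, 43.3 ± 1.92%, 42.7 ± 0.94% and 43.1 ± 1.09% of the gamma sum in the same order, and 37.3% in sample 10. Pcdhac2 had 1448, 1386, 1391 and 1792 normalized counts in WTSH, 1512 to 1824 in KDSH, 1217 to 1546 in WTEE without sample 10 and 1195 to 1700.1 in KDEE. Pcdhgc5 had 3684 to 4713 in WTSH, 3732 to 5104 in KDSH, 3954 to 4283 in WTEE without sample 10 and 3548 to 4679 in KDEE, so the groups overlapped in both genes. Pcdhgc3 had 1012 to 1583 in KDEE, the widest range of the 4 groups without sample 10, and 1065 to 1330.2 in KDSH. Pcdhac1 had 132 to 158 in WTSH and 146 to 176 in KDSH, 113 to 173 in WTEE without sample 10 (60.7 in that sample) and 95.4 to 159 in KDEE. The log2 fold changes of these 5 genes lay between -0.32 and 0.13 in the 4 group comparisons, and none was called.

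The numbers in the labels, 1 per mouse, ran from 1 to 8 in standard-housed mice only and from 9 to 16 in enriched mice only. Numbers 17 to 24 held 2 of each group. What the numbers stand for, such as an order of animals or of handling, is not given. Within 1 to 16 number and housing cannot be told apart. Gamma and beta levels stood in a different ratio in the latter. The gamma sum was 1.25 ± 0.07 times the beta sum in mice 17 to 24 (SD, n = 8, range 1.17 to 1.40) and 1.47 ± 0.07 times in mice 1 to 16 without WTEE sample 10 (SD, n = 12, range 1.29 to 1.55). Of the 21 gamma genes 19 were lower in mice 17 to 24 (median log2 ratio -0.10), and 18 of 22 beta genes (median 0.10) and 11 of 12 alpha genes (median 0.10) were higher, beside a median of 0.00 over all genes. No single protocadherin had separate ranges in these mice, against 0.931% of all genes. The index was 0.08 ± 0.09 in mice 17 to 24 (SD, n = 8) and -0.04 ± 0.11 in the others (SD, n = 12). This split was noticed in the data, and its part in the ratio was not tested. The labels give no extraction or sequencing date. A term for mice 17 to 24 was added to the fit, which cannot adjust for numbers 1 to 8 against 9 to 16. With it the 4 group comparisons and the interaction again called 0 of the 55, with medians between -0.15 and 0.05. With this term and without WTEE sample 10 they also called 0. That last fit was the only one of these to call other genes, 40 of 20078 for KDEE against KDSH, where 6 of the 55 protocadherins and 24.4% of all genes had an unadjusted p under 0.05.

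Mice differed from each other in single protocadherins about as much as in other genes. The coefficient of variation within groups, over the 20 mice without WTEE sample 10, had a median of 14.1% in alpha, 11.6% in beta and 10.9% in gamma genes, beside 10.5% in the 14008 other genes in the same range of levels (quartiles 6.82% and 18.1%). It was highest in Pcdhb1 (32.0%) and Pcdha8 (27.98%), which had the lowest levels, and lowest in Pcdhb9 (5.35%). With WTEE sample 10 the medians were 20.9% in alpha and 18.3% in gamma but 12.3% in beta, beside 13.3% in the other genes.

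The genes that set and read the protocadherin code were looked up as 3 lists, none of which had a gene called by edgeR or DESeq2 in any of the 5 comparisons. The first was 26 regulators of the clusters, all tested, of which 1 had an unadjusted p under 0.05 for WTEE against WTSH, 3 for KDEE against KDSH and 0 in the rest, all of them lower with enrichment. These shares were at or below those of all genes, 6.55% and 11.6%. Ctcf, the insulator protein, averaged 3317 ± 164 normalized counts (SD) over the 4 WTSH mice, 3342 ± 104 over the 5 KDSH mice, 3156 ± 174 over the 6 WTEE mice and 3141 ± 73.5 over the 6 KDEE mice. Rad21, a cohesin subunit, Wapl, which releases cohesin, and Smchd1, which silences the clusters, had log2 fold changes between -0.11 and 0.09 in all 5 comparisons, each with an unadjusted p above 0.05. Nipbl, which loads cohesin, had 2581 to 3194 normalized counts in WTSH and 1799 to 2822 in WTEE, where the lowest was sample 10. Enriched mice differed by a log2 fold change of -0.24 in WT (adjusted p = 0.651 in edgeR) and -0.20 in MSK1 KD mice (adjusted p = 0.419). Setdb1, a histone methyltransferase, had 2425 to 2745 in KDSH and 2038 to 2349 in KDEE, with no overlap (1.84% of all genes) and a log2 fold change of -0.17 (edgeR, adjusted p = 0.381). Hnrnpu, an RNA-binding nuclear matrix protein, was the other of the 3, with -0.12. The smallest p of the list in the other comparisons belonged to Hnrnpu (0.05 on the log2 scale, KDSH against WTSH), Smc3 (0.08, WTEE against KDEE) and Rad21 (-0.09, interaction). The median of the list was -0.09 in both housing comparisons and between -0.02 and 0.01 in the others, beside 0.00 to 0.01 over all genes. Without WTEE sample 10 it was -0.05 for WTEE against WTSH, and turned from -0.02 to 0.01 for WTEE against KDEE and from -0.02 to 0.03 for the interaction.

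The second list was 27 partners in adhesion and signalling, all tested, with 2 genes at an unadjusted p under 0.05 in each housing comparison, 1 higher and 1 lower, and 0 in the rest, against the same 6.55% and 11.6% of all genes. The kinases Ptk2 and Ptk2b, which the cytoplasmic tails of protocadherins hold in check, had log2 fold changes from -0.05 to 0.01 and from -0.17 to 0.07. Nlgn1, a postsynaptic adhesion protein, lay between -0.11 and 0.00. None of these had an unadjusted p under 0.05. The smallest p values of this list belonged to Pdcd10 (0.20, edgeR adjusted p = 0.651) for WTEE against WTSH and Abi2 (-0.13, adjusted p = 0.414) for KDEE against KDSH. In the others they belonged to Adam10 (0.05), Wasf3 (-0.14) and Ctnnb1 (-0.10). Medians were between -0.04 and 0.00. The last list was 14 protocadherins and relatives outside the clusters, of which 13 were tested and 1 had an unadjusted p under 0.05 in each housing comparison and for WTEE against KDEE, each time lower in the first group, which for 13 genes is near the 6.55%, 11.6% and 4.99% of all genes. Pcdh19, an X-linked adhesion gene whose mutation causes epilepsy, had 4124 to 4880.2 normalized counts in WTSH and 2933 to 4002 in WTEE, with no overlap (0.986% of all genes), and 3982 to 5414 in KDSH and 3559 to 4314 in KDEE, with overlap. The log2 fold change with enrichment was -0.32 in WT mice (SE 0.09, edgeR adjusted p = 0.651), or -0.27 without sample 10, and -0.24 in MSK1 KD mice (SE 0.09, adjusted p = 0.375). Cdhr1 had the smallest p of this list for WTEE against KDEE (-0.38, edgeR adjusted p = 0.323) and for KDSH against WTSH (0.16), and Pcdh11x for the interaction (-0.26). The medians were -0.15, -0.09, 0.02, -0.10 and -0.10 in the order WTEE against WTSH, KDEE against KDSH, KDSH against WTSH, WTEE against KDEE and interaction. Without WTEE sample 10 they were -0.07 for WTEE against WTSH and -0.03 for both WTEE against KDEE and the interaction.

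The libraries set aside held 7239 protocadherin counts in WTSH sample 4 and 11000 in WTSH sample 7, both below every kept mouse, and 18665 in KDSH sample 6, within the range of the kept mice, with 16.97%, 17.2% and 9.40% ambiguous reads. WTSH samples 4 and 7 had the highest end-distance indices of all 24 libraries, 0.31 and 0.34, and KDSH sample 6 had -0.35, below every kept mouse but WTEE sample 10. The clusters went the same way. The alpha sum was 3442 and 4030.3 in WTSH samples 4 and 7, against 2956 to 3818 in the kept WTSH mice, and 2538 in KDSH sample 6, against 3208 to 3737 in the kept KDSH mice. The gamma sum was 14784 and 16443 against 13720.3 to 15076, and 12461 against 13711 to 15466. The beta sum was 11055 and 10573 against 9781 to 10726, and 9146 against 9953 to 11294. In single genes, WTSH samples 4 and 7 were above all kept WTSH mice in 27 and 28 of the 55 genes and below all in 10 and 6, beside 27.1% and 25.9% of all tested genes above and 28.9% and 28.2% below. KDSH sample 6 was below all kept KDSH mice in 30 and above in 3, beside 25.7% and 26.2% of all genes. Pcdha8 reached 96.0 normalized counts in WTSH sample 7 and 52.6 in sample 4, against 19.9 to 40.1 in the kept WTSH mice.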

How the data were processed

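Per the labels and methods, reads were trimmed by Skewer and mapped by STAR on GRCm38, and HTSeq counted those in each gene. The deposited values are whole-number counts of uniquely assigned read pairs without regard to strand, so a gene and an antisense partner cannot be told apart. The submitters' notes give STAR 2.5 and HTSeq 0.6.1p1. The 21 libraries kept by the study were fitted together in edgeR 4.0.16 (R 4.3.3; filterByExpr, TMM, quasi-likelihood test, 4 groups without covariates), with p-values adjusted by the Benjamini-Hochberg method over 20187 genes. Genes were called at an adjusted p below 0.05 if their log2 fold change also passed 0.38 in either direction. Single genes were also tested by exact two-sided permutation of mouse values. Log2 ratios to other mice used a pseudocount of 1 normalized count. Exon lengths and distances came from GENCODE M21, a later annotation than the authors'. Named genes were the C-types, the 3 highest and 2 lowest per cluster, the 2 largest differences per comparison and any gene called or, at p under 0.05, not overlapping. Genes from the 3 lists were named if called or of smallest p, besides Ctcf, Rad21, Smchd1, Nipbl, Wapl, Ptk2, Ptk2b and Nlgn1. The members, lists and tests were chosen with earlier results of these data known. DESeq2 1.42.0 and other settings served as alternatives. The fit was tested on simulated counts. Replicates are separate mice. The depth limits low genes such as Pcdhb1, which had 3 raw counts in 1 library.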

Additional observations from a re-analysis of the deposited data

Results flagged for a closer look

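The 3 cluster sums and the named protocadherins in each group, 96 groups of values, were tested for a single sample far from the others. Of these, 13 had one. Chance would give about 1 in 20 for any single group. The groups share libraries, the sums contain the named genes, and some genes were named for large differences. The flags are therefore not separate, and their number was not tested. WTEE sample 10 was the sample in 9 of them. It was the lowest for the alpha sum (912 normalized counts), the gamma sum (4306), Pcdhac2 (269), Pcdhgc3 (476), Pcdhgc4 (161), Pcdhgc5 (968), Pcdhga11 (211) and Pcdha2 (38.5), and the highest for Pcdhb12 (296). WTSH sample 23 was the highest of 4 for the beta sum (10726) and for Pcdhac2 (1792). KDSH sample 24 was the lowest of 5 for Pcdhga11 (439), and KDSH sample 1 was the highest for Pcdhgb5 (400.2).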

How the results depend on the processing

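The count of called protocadherins was 0 in all 5 comparisons under every alternative run: DESeq2, relative log expression (RLE) size factors, no filter, at least 10 counts in every library, all 24 libraries, only the groups compared (not run for the interaction, which needs all groups), a robust fit, no fold threshold, each of the 21 mice left out in turn, and, added after the data were seen, the end-distance index and the term for mouse numbers. DESeq2 called 2, 14, 0, 118 and 20 of all genes, in the order of the report. Leaving out 1 mouse moved the median log2 fold change of the members between -0.20 and -0.02 for WTEE against WTSH, -0.10 and -0.06 for KDEE against KDSH, 0.02 and 0.07 for KDSH against WTSH, -0.16 and -0.01 for WTEE against KDEE, and -0.13 and 0.05 for the interaction. The index as a covariate turned the KDEE against KDSH median from -0.07 to 0.08 and that of WTEE against WTSH from -0.16 to 0.03. Its slope rests largely on WTEE sample 10, without which it was not fitted. All 24 libraries turned the median of KDSH against WTSH from 0.04 to -0.04. The log2 ratio of the beta sums, WTEE against WTSH, was -0.02 over all mice and 0.0751 in mice 17 to 24 alone. Levels per kb of whole exon length, shared bases included, kept 6 of the 10 highest genes. Among 306 refits of the 10 named largest differences none changed sign. These differences were picked for their size in the same data, so a kept sign is no test of them. Some shrank much: Pcdha2 for KDEE against KDSH went from -0.30 to -0.06 with the index. Pcdha9 for KDSH against WTSH went from 0.39 to 0.13 with all 24 libraries. No paired analysis was possible because no mouse number occurs in more than 1 group. With 4 to 6 mice per group, differences as large as those printed, none of which was called, may have been missed.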
